A study of Mus musculus with 2 samples.

Results

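The SLAM family receptors and their relative CD2 were followed in splenic antigen-presenting cells (APCs) of mice, on an array of cells that had met T cells together with their antigen and on an array of cells that had met the same T cells without it. The family was taken as 9 genes, Slamf1, Slamf6, Slamf7, Slamf8, Slamf9, Cd48, Cd84, Ly9 and Cd2. Every probe set whose single gene symbol on the platform is one of them was used, which gave 14 of the 45037 probe sets other than controls, and 9 of 18193 named genes. The P25 group was spleen APCs of 10-week-old female C57BL/6 wild-type mice that spent the night in culture with the P25 peptide. The medium group was APCs from mice of the same strain, sex, age and organ that were given medium in place of the peptide and are labelled non-stimulated. Both cultures held CD4+ T cells with the P25 T cell receptor, a transgenic receptor for this mycobacterial peptide on MHC class II, so the groups differ in the peptide and not in the presence of T cells. The APCs were enriched afterwards, and RNA mixed from 3 independent experiments went onto 1 array per condition. There is therefore no spread between replicates and no test, the number of arrays limits the precision, and every ratio below describes these 2 arrays.

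SLAM family receptors are surface proteins of the immunoglobulin superfamily found on blood cells. Most of them bind a copy of themselves on a facing cell, so that a T cell and the cell presenting antigen to it can engage the same receptor from both sides. The tails of most members carry tyrosine switch motifs that recruit the small adaptors SAP and EAT-2, whereas the tails of SLAMF8 and SLAMF9 are short and lack them, and CD48 is held in the membrane by a lipid anchor. In the mouse, CD48 is the ligand of CD2 and of CD244.

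Ratios within the family went in both directions. Slamf8 and Slamf7 were at least 2-fold higher with P25, Cd2 and Cd84 were at least 2-fold lower, and the other 5 genes (Slamf1, Slamf6, Ly9, Cd48 and Slamf9) were within 2-fold. A gene was read on its brightest probe set, signals under a floor of 10.3 (the 40th percentile over both arrays) were set to the floor, and all 9 genes were above it on both arrays. Of the 12897 genes above the floor on at least 1 array, 9.43% were at least 2-fold higher and 7.22% at least 2-fold lower, or 16.6% in either direction, against 2 of 9 and 2 of 9 in the family. With 9 genes, each call is 1 gene, and the counts are given as a description. The median log2 ratio of P25 over medium was 0.31 in the family and 0.02 over all measured genes. The members spread from -1.75 (Cd2) to 1.75 (Slamf8), where the 5th and 95th percentiles of all measured genes were -1.14 and 1.33. As a gauge of technical disagreement, the log2 ratios of the 2 brightest probe sets of a gene differed with an SD of 0.58 over 5293 genes, or 0.44 where the dimmer of them had a signal of 100 or more on both arrays.

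**Figure D1:**
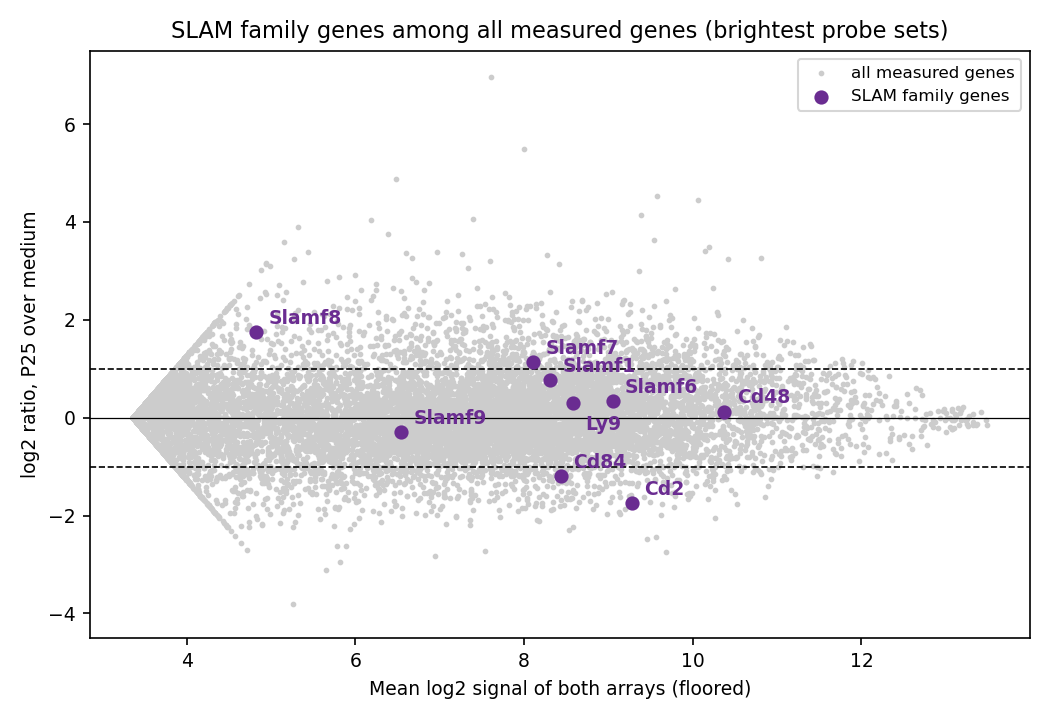
Log2 ratio of P25 over medium (vertical axis) against the mean log2 signal of both arrays with signals under the floor set to it (horizontal axis), for every measured gene on its brightest probe set (grey) and the 9 SLAM family genes (purple); dashed lines mark 2-fold. Slamf8 (1.75) and Slamf7 (1.13) lie above the upper line, Cd84 (-1.20) and Cd2 (-1.75) below the lower one, and Slamf8 lies near the dim edge of the cloud.

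The 250 bases before the annotated start are shown for the genes past 2-fold whose sequence was at hand, with Slamf1 beside them as the member with the most probe sets on one side, so that the letters upstream of genes that went opposite ways can be compared. The sequences are from RefSeq (build GRCm38.p6), read 5′ to 3′ on the strand of the gene. The Slamf8 window is chr1:172590569-172590818, minus strand. The Slamf7 window is chr1:171649000-171649249, minus strand. The Slamf1 window is chr1:171766882-171767131, plus strand. The Cd84 window is chr1:171839447-171839696, plus strand. Capitals mark matches to 4 motifs chosen with the ratios known.
Slamf8: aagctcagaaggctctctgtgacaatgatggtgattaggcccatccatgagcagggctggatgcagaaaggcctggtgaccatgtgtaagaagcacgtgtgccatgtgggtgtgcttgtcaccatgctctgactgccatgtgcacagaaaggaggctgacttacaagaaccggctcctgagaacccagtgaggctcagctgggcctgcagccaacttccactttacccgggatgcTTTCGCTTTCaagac
Slamf7: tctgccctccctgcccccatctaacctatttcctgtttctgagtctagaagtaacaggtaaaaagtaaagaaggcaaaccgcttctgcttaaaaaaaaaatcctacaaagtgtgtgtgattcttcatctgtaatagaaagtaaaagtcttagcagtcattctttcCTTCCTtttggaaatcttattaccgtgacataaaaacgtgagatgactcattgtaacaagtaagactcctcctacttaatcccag
Slamf1: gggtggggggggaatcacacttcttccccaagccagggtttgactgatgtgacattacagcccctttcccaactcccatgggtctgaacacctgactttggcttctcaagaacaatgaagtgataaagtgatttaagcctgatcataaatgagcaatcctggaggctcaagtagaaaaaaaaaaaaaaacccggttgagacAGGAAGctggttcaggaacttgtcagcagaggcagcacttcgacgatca
Cd84: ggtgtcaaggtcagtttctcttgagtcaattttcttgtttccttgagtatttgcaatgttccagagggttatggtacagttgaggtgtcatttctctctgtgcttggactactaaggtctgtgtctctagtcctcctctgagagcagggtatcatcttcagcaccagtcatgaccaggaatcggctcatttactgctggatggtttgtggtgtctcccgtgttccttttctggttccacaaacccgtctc

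The motifs were the interferon-γ activated site TTCNNNGAA, an interferon response element written as GAAANNGAAA, the ETS core AGGAAG, which the myeloid and B cell factor PU.1 binds, and the NF-κB consensus, each searched on both strands, and no matches overlapped. The window was searched in the 7 members with an entry, which are those 4 and Cd48, Slamf6 and Slamf9. The interferon response element matched in 1 of 7, Slamf8, as TTTCGCTTTC on the strand opposite the gene, 15 to 6 bases before the start, and in 2.98% of all 32851 promoter windows of that length. The ETS core matched in 3 of 7 (Slamf1, Slamf7 and Slamf9) and in 29.5% of all windows. The activated site and the NF-κB consensus matched in 0 of 7, against 7.02% and 3.90% of all windows. The window of Cd84 held none of the 4 motifs. A match is a run of letters and not a binding site, and a window without one says nothing of the factor.

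Cd2 was lower with P25, while the gene of its ligand, Cd48, was within 2-fold. Cd2, an adhesion receptor of lymphocytes that in the mouse is also carried by B cells, had a signal of 339 with P25 and 1140 with medium. That is 3.36-fold lower with P25 (log2 ratio -1.75), and 1.01% of measured genes had a lower ratio. Cd48, present on nearly all leukocytes, had signals of 1383 with P25 and 1273 with medium. Its log2 ratio of 0.12 was within 2-fold, and loess normalisation turned its sign, to -0.07. Each of the pair was read by 1 probe set, so neither ratio had a second reading.

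Cd2 is often used as a T cell marker, and the APCs had been enriched from cultures that held T cells. The defining T cell markers Cd3e, Cd3d and Cd4 were below the floor on both arrays, while Cd3g, another CD3 chain, was above it on both (21.6 with P25 and 11.1 with medium, a log2 ratio of 0.96, the highest of the list). Of 12 listed T cell markers on the array, 7 were measured, with 0 at least 2-fold higher and 2 lower, Il7r (31.0 with P25 and 85.2 with medium) and Cd28 (22.5 with P25 and 56.0 with medium). The signals of all 12 summed to 154 with P25 and 226 with medium, and the lower sum with P25 comes from Il7r and Cd28. By sign, 3 of the 7 measured markers were above 0 in log2 ratio and 4 below. Of 13 B cell markers, all measured, 12 were below 0 in log2 ratio and 3 of these by 2-fold or more. The B cell list had a median log2 ratio of -0.66 and summed signals of 26326 with P25 and 38060 with medium. The B cell receptor component Cd79a stood at 3655 with P25 and 6119 with medium, while Ms4a1, which encodes CD20, stood at 5911 with P25 and 5041 with medium. The part of B cells in the lower Cd2 signal was not tested. In such mixed samples fewer cells of a type and less RNA per cell cannot be told apart.

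**Figure D2:**
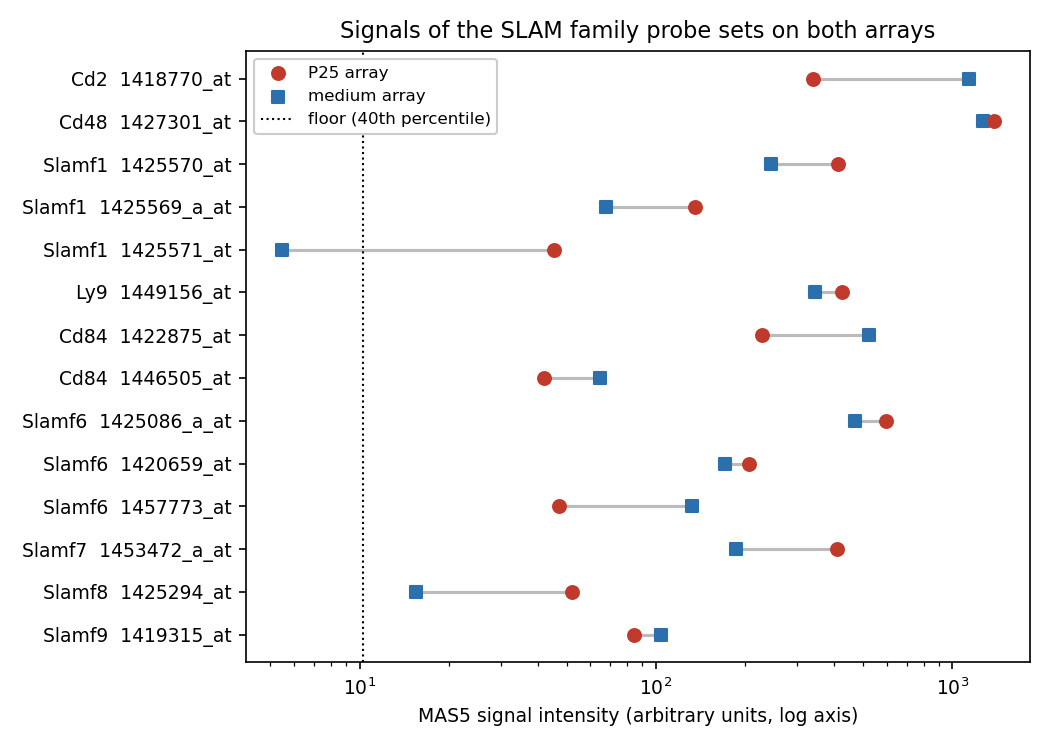
Signals of the 14 SLAM family probe sets with P25 (red circles) and with medium (blue squares) on a log axis in arbitrary units, with a grey line joining both readings of a probe set and a dotted line at the floor of 10.3. The medium reading of 1 Slamf1 probe set lies below the floor, and the 3 probe sets of Slamf6 do not all point the same way.

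Among the receptors with switch motifs, Slamf1 leaned higher on every probe set and Slamf7 passed 2-fold. Slamf1 encodes CD150, a self-binding receptor of activated lymphocytes and APCs. Its brightest probe set had signals of 413 with P25 and 244 with medium, 1.69-fold higher (log2 ratio 0.76) and within 2-fold. The second had 135 with P25 and 68.1 with medium, 1.98-fold higher and just under the threshold, which it passed with median, spike-in and loess scaling (log2 ratios of 1.13, 1.14 and 1.17). The third had 45.1 with P25 and 5.46 with medium, below the floor, so it was at least 4.39-fold higher. A floor at the 60th percentile left it a log2 ratio of 0.22. All 3 probe sets of Slamf1 thus had a ratio above 0, with sizes that differed from one to the next.

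Slamf7 encodes CRACC, a self-binding receptor of NK cells, activated B cells and myeloid cells. Its signal was 408 with P25 and 186 with medium. The ratio was 2.19-fold higher (log2 ratio 1.13), and 92.8% of measured genes had a lower one. Only 1 probe set reads Slamf7, and its name ends in _a_at, Affymetrix's mark for probes shared by transcripts of one gene. The plasma cell markers, a cell type on which SLAMF7 is prominent in humans, had 0 of 5 at least 2-fold higher and 1 lower (Sdc1, 89.9 with P25 and 298 with medium). Their signals summed to 5724 with P25 and 7336 with medium, where Prdm1 had 59.2 with P25 and 85.1 with medium, and Jchain 2635 with P25 and 4525 with medium. The other 2 plasma cell markers went the other way, Xbp1 with 1988 with P25 and 1635 with medium, and Irf4 with 951.5 with P25 and 791.8 with medium.

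Cd84, a self-binding receptor of B cells, macrophages and other leukocytes, went the other way. Its brighter probe set had signals of 228 with P25 and 523 with medium, 2.30-fold lower (log2 ratio -1.20). Its dimmer probe set had 41.9 with P25 and 64.8 with medium, 1.55-fold lower (-0.63), so both readings were lower and only the brighter passed 2-fold. By the median over both probe sets the log2 ratio was -0.91, under the threshold. Most measured markers of macrophages and monocytes were lower with P25 on the same arrays. Of 12 on the array 9 were measured, and 6 of them were lower by 2-fold or more and 0 higher. Over all measured genes 7.22% were lower and 9.43% higher by that much. Of these 6, C1qb, Mertk and Ccr2 were dim and below the floor with P25, so their ratios are bounds. By sign, 8 of the 9 were below 0 and 1 above, Fcgr1 (27.1 with P25 and 19.3 with medium, 0.49, with -0.42 on its other probe set). The median log2 ratio of the list was -1.28, with summed signals of 536 with P25 and 1313 with medium. The macrophage growth factor receptor Csf1r had 173 with P25 and 514 with medium, and Adgre1, which encodes F4/80, had 153 with P25 and 329 with medium, while C1qa was below the floor on both arrays. Neutrophil markers were lower too (8 of 10 past 2-fold, among them S100a9 and Mpo but not S100a8), and their signals summed to 6992 with P25 and 12981 with medium. The part of these cells and of B cells in the lower Cd84 signal was not tested.

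Ly9 and Slamf6 differed little on their brightest probe sets. Ly9 encodes CD229, a self-binding receptor of lymphocytes, and had 425 with P25 and 344 with medium, a log2 ratio of 0.31 on its only probe set. Slamf6 encodes Ly108, a self-binding receptor of T and B cells. Its brightest probe set had 596 with P25 and 470 with medium (log2 ratio 0.34), and the second 206 with P25 and 170 with medium (0.27). The third probe set of Slamf6 stood against both, with 46.9 with P25 and 133 with medium, 2.83-fold lower (-1.50). The readings of Slamf6 thus span 1.84 log2 units over 3 probe sets, a span set by the dimmest of them. The SDs given above are between the 2 brightest probe sets of a gene, which for Slamf6 lie close together, so they do not gauge this span. Which transcript each probe set reads, and whether that differs between them, was not tested. Over all 14 probe sets of the family 3 were at least 2-fold higher and 3 at least 2-fold lower, where 9.15% and 7.6% of all 24042 measured probe sets with 1 gene name were (16.7% in either direction).

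Slamf8 and Slamf9, whose short tails lack switch motifs, also differed from each other. Slamf8, a receptor of macrophages and dendritic cells, had a signal of 52.0 with P25 and 15.5 with medium. That is 3.36-fold higher (log2 ratio 1.75), and 97.8% of measured genes had a lower ratio. Both readings are dim and the medium signal is close to the floor. Raising the floor to the 60th percentile (38.6) left Slamf8 a log2 ratio of 0.43, under 2-fold. Slamf9, found on dendritic cells and macrophages, had 84.1 with P25 and 104 with medium, a log2 ratio of -0.30. Among conventional dendritic cell markers 9 of 10 on the array were measured, 2 of them higher and 1 lower by 2-fold or more. The median of the dendritic cell list was -0.29 in log2 ratio, and 6 of the 9 were below 0. Its signals summed to 1452 with P25 and 1224 with medium. Irf4, which is also on the plasma cell list, made up most of both sums (951.5 with P25 and 791.8 with medium), so the sums say little of dendritic cells. The dendritic cell growth factor receptor Flt3 had 21.2 with P25 and 36.8 with medium, the transcription factor Zbtb46 80.0 with P25 and 14.0 with medium, and the integrin Itgax 26.2 with P25 and 47.9 with medium. Of 6 plasmacytoid dendritic cell markers 2 were higher and 2 lower by 2-fold or more, with summed signals of 1892 with P25 and 1735 with medium. Of these, Siglech had 24.1 with P25 and 50.8 with medium, Tcf4 1134 with P25 and 1265 with medium, and Bst2, which interferon also induces, 480.1 with P25 and 112.6 with medium. The higher sum with P25 comes from Bst2, and by sign 2 of the 6 were above 0 and 4 below. Klk1 was also higher by 2-fold (128 with P25 and 52.5 with medium), with probe sets down to -0.61. Ccr9 was also lower by 2-fold (48.1 with P25 and 116 with medium), with probe sets up to -0.02. The higher Slamf8 signal thus stood beside macrophage markers that were mostly lower and dendritic cell markers that went both ways. The part of either cell type in the Slamf8 signal was not tested.

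**Figure D3:**
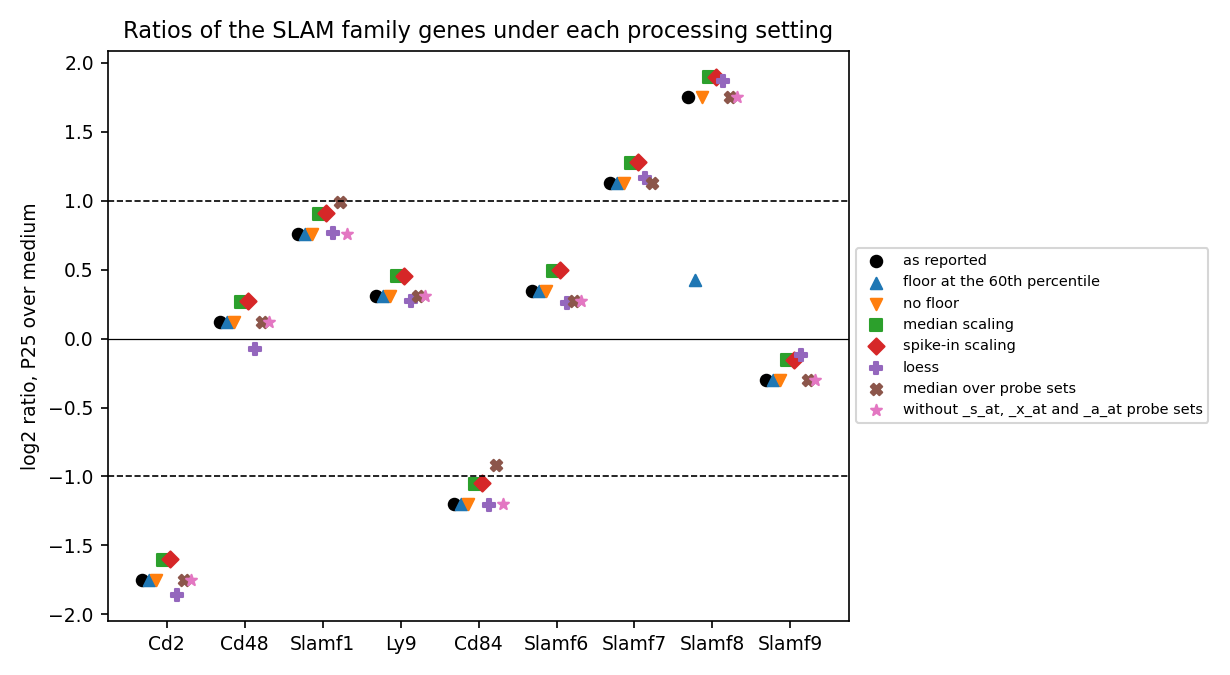
Log2 ratio of P25 over medium (vertical axis) of each SLAM family gene as reported (black) and under 7 other processing settings (coloured symbols), with dashed lines at 2-fold. Cd2 stays below -1 and Slamf7, where it can be read, above 1 in every setting shown; Slamf8 drops to 0.43 with the higher floor, Cd84 comes to -0.91 by the median of its 2 probe sets, and Cd48 changes sign after loess.

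Of the genes listed as adaptors, enzymes or partners of SLAM receptors, 16 of 18 measured were within 2-fold. Neither the gene of SAP nor that of EAT-2 was among those 18. Of 23 listed genes 19 had a probe set of their own name and 18 were measured. The EAT-2 genes Sh2d1b1 and Sh2d1b2, and the kinase genes Lck and Lyn, had no such probe set. Of the measured genes 0 were at least 2-fold higher and 2 at least 2-fold lower, where 9.43% and 7.22% of all measured genes were. Over those 18 the median log2 ratio was -0.21, against 0.02 over all genes. Cd244a encodes 2B4, a SLAM family receptor that binds CD48 and was not among the 9 genes taken here. Its brightest probe set had 6.54 with P25, below the floor, and 37.0 with medium, at least 3.59-fold lower. Its other probe set had 4.66 with P25, again below the floor, and 18.6 with medium, a log2 ratio of at most -0.85. Both readings of Cd244a are dim. Inpp5d encodes SHIP-1, a lipid phosphatase that binds the tails of SLAM receptors, and had 541 with P25 and 1273 with medium, 2.35-fold lower (-1.23), with -0.96 on its second probe set. Fyn, the kinase that SAP brings to the receptors, had 289 with P25 and 536 with medium (-0.89, and -0.37 on its other probe set). At the other end, Cd2bp2 and Cd2ap, which bind the tail of CD2, had log2 ratios of 0.69 and 0.52. The other probe sets of Cd2bp2 gave -0.22 and 1.00, so its readings differ in sign, and those of Cd2ap ran from 0.46 to 0.63. The phosphatase gene Ptpn6, which encodes SHP-1, stood at 2764 with P25 and 2985 with medium (-0.11, and 0.21 on its other probe set). Sh2d1a, which encodes SAP, the adaptor of T and NK cells, was below the floor on both arrays (4.604 with P25 and 0.236 with medium), so no ratio is given. CD244 is also a receptor of NK cells. Of the NK cell markers 5 of 7 on the array were measured, 0 at least 2-fold higher and 1 lower (Klrd1, 26.1 with P25 and 76.6 with medium). Ncr1 was below the floor. By sign, 2 of the 5 were above 0 in log2 ratio and 3 below, and only 2 were above the floor on both arrays. The signals of the list summed to 93.9 with P25 and 135 with medium, and the lower sum with P25 comes from Klrd1.

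**Figure D4:**
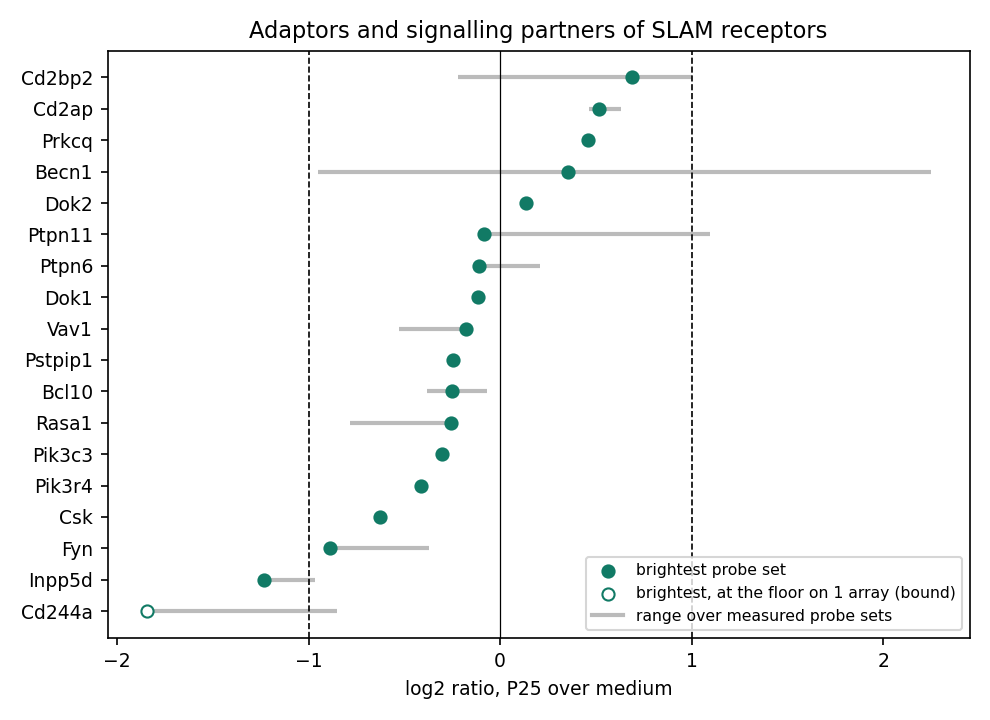
Log2 ratio of P25 over medium (horizontal axis) of the 18 measured adaptors and signalling partners of SLAM receptors on their brightest probe sets (green points; open where 1 array was at the floor, so that the value is a bound), with grey lines over the range of all measured probe sets of the gene and dashed lines at 2-fold. Cd244a (-1.84) and Inpp5d (-1.23) lie past the lower line, no brightest probe set lies past the upper one, and the probe sets of Becn1 run from -0.95 to 2.25. The reading of 2.25 had 48.9 with P25 and 10.3 with medium, next to the floor, and the brightest probe set of Becn1 gave 0.35.

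Apart from Cd2, the family sits in one stretch of mouse chromosome 1, and members next to each other had unlike ratios. In the RefSeq annotation, Ly9, Slamf7, Cd48, Slamf1, Cd84 and Slamf6 follow each other in that order among protein-coding entries, with only Tma7-ps between Cd48 and Slamf1, and Slamf9 and Slamf8 come later in the same stretch. Slamf7 (log2 ratio 1.13) and Slamf1 (0.76) lie on either side of Cd48 (0.12), and Cd84 (-1.20) lies between Slamf1 and Slamf6 (0.34). Of 18 listed genes beside the cluster that are not among the 9 genes, 14 were measured, with a median log2 ratio of -0.05. Of these 2 were at least 2-fold higher, 1 lower and 11 within 2-fold, where 9.43% and 7.22% of all genes were higher and lower. Over all 15 measured genes between Ly9 and Slamf8 that are not members, 3 were higher and 0 lower, with a median of 0.20. The third of them, Casq1, had 20.6 with P25 and 9.27 with medium, below the floor, and is at the threshold itself as a bound. Tagln2, an actin-binding protein gene, had 802 with P25 and 352 with medium, 2.28-fold higher, and its other measured probe set gave a log2 ratio of 3.55. Igsf9, next to Slamf9 in that annotation, had 45.6 with P25 and 20.7 with medium, 2.20-fold higher. The gene lower by 2-fold was Cd244a, the SLAM family receptor that is also counted in the signalling list. The lowest ratios above the floor on both arrays were those of Ncstn (-0.80) and Usf1 (-0.73, with 0.06 on its other measured probe set).

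**Figure D5:**
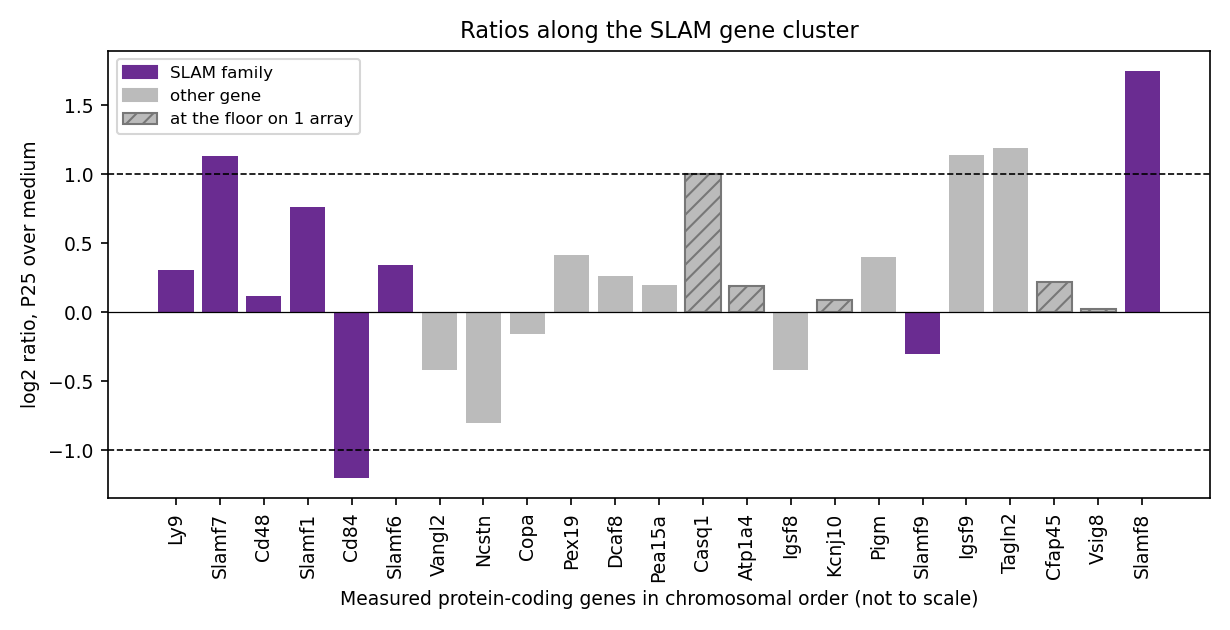
Log2 ratio of P25 over medium (vertical axis) of the measured protein-coding genes from Ly9 to Slamf8 in chromosomal order, not to scale, with SLAM family genes in purple, other genes in grey and hatching where 1 array was at the floor; dashed lines mark 2-fold. Neighbouring members differ in size, and Cd84 (-1.20) differs in sign from Slamf1 (0.76) and Slamf6 (0.34) on either side of it. Slamf8 has the tallest bar.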

How the data were processed

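APC RNA, pooled from 3 experiments per condition per the series' design text, was labelled with biotin for 1 Affymetrix array each, per the labels' protocols. The deposited values are MAS5 signal intensities on a linear scale made by the authors with GCOS, per the submitters' processing notes; for versions, scaling target and detection calls nothing is stated in those sources. MAS5 subtracts mismatch signal, so dim ratios are noisy. The platform annotation gave 34945 probe sets 1 gene symbol, 932 several and 9160 none, with symbols updated by Entrez number through RefSeq; only single names were used. Each gene was read on the probe set brightest by mean log2 signal. Ratios were computed in Python 3.11.15 with pandas 2.3.3 (loess from statsmodels 0.14.6, span 0.3) and tested on simulated data; 7 other settings of floor, scaling and probe set choice were run. Members, gene lists, motifs and settings were chosen with earlier results of these data known. The rule for named genes took all members, the 2 highest and 2 lowest of the signalling and neighbour lists, and the first 3 of each marker list; other marker genes named, and Ptpn6 and Becn1, were chosen after their values were seen. Medians of the deposited signal were 18.0 (P25) and 18.4 (medium), and 60.3% (P25) and 59.7% (medium) of probe sets were above the floor. No scan date was used, so batch and treatment cannot be told apart.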

Additional observations from a re-analysis of the deposited data

How the results depend on the processing

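With 1 array per condition none could be left out, and no paired analysis was possible because each group holds 1 sample and no test was made. Of 132 single-gene and single-probe-set ratios under other settings, 128 moved by less than the SD of 0.58 between probe sets of a gene. The 4 that moved by more were Slamf8, counted as gene and as probe set, and the third Slamf1 probe set under both other floors. Many entries repeat a gene's brightest probe set, and a change of floor cannot move brighter readings, so the count does not measure stability. Of the ratios past 2-fold 0 changed sign, while Cd48, within 2-fold, turned to -0.07 after loess. Family members at least 2-fold higher numbered 1 in place of 2 with the floor at the 60th percentile (Slamf8 at 0.43, by construction of the floor) and without probe sets ending in _s_at, _x_at or _a_at, which removes Slamf7. Members at least 2-fold lower numbered 1 in place of 2 by the median over probe sets (Cd84 at -0.91). The family median log2 ratio came to 0.45 after median scaling, to 0.46 on the spike-in scale and to 0.20 without the suffixed probe sets. Both scalings also moved the median of all genes, to 0.15 and 0.16, and the shares of all genes past 2-fold to 12.4% higher and 5.06% lower after median scaling, and to 12.5% and 4.94% on the spike-in scale. Against this shift the family median stood about as far above all genes as on the deposited scale, and the counts of members stayed at 2 higher and 2 lower. In the signalling list, genes at least 2-fold lower numbered 1 with the higher floor, where Cd244a is no longer measured, and 0 without the suffixed probe sets, against 2. Its median came to -0.067 after median scaling and to -0.061 on the spike-in scale. The ratio of the third Slamf1 probe set was 0.22 with the higher floor and 3.05 with no floor. What limits the dim readings (Slamf8, the third Slamf1 probe set, Cd244a) is signal close to the floor.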
